A study of Homo sapiens with 12 samples.

Results

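The genes described here are the 36 members of a list of aminoacyl-tRNA synthetase genes, taken by symbol from rows on chromosomes 1 to 22. They are 36 of the 60675 genes in the deposited table, and all 36 passed the filter on low counts, as did 15112 genes in all. The list was divided by symbol, as its rule asks: 16 genes whose symbol ends in 2 formed the mitochondrial group and the other 20 the cytosolic group. The assay was strand-specific RNA-seq of polyA+ RNA in U-2932, an established human diffuse large B cell lymphoma line. All cells carried stably expressed Roquin2, an RNA-binding protein encoded by RC3H2, either wild-type (WT) or with a Y691F substitution. They were untreated or received F(ab')2-IgM, an antibody fragment that cross-links the B cell receptor (10 µg/ml, 12 h). The 4 groups were therefore untreated WT, WT with IgM, untreated Y691F and Y691F with IgM, each with 3 libraries described in the series' design text as independent biological replicates.

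How many lines were made for each Roquin2 form was not given in the sources used here, so form and line cannot be told apart. RC3H2 mRNA itself also differed between them: it was at 109 to 111 CPM (counts scaled to a common library total) in untreated WT and 207 to 209 CPM in untreated Y691F, and at 120 to 123 CPM and 204 to 207 CPM with IgM. Library totals ran from 16465393 to 21478790 counts, and the biological coefficient of variation between replicates was 2.51%. All 8 B cell markers checked were above 1 CPM in every group. The 6 T and NK cell markers summed to 0.446 to 1.71 CPM and the 6 myeloid markers to 0.755 to 1.58 CPM. The 7 fibroblast and epithelial markers summed to 20.7 to 27.1 CPM, with EPCAM above 1 CPM in every group.

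Aminoacyl-tRNA synthetases attach each amino acid to its tRNA, and so supply the ribosome with charged tRNA. Human cells use one set of enzymes in the cytosol and another, also encoded in the nucleus, in mitochondria. Several cytosolic enzymes sit in the multisynthetase complex, which is held together by scaffold proteins. When uncharged tRNA accumulates, the kinase GCN2 (gene EIF2AK4) raises translation of the transcription factor ATF4, which is known to bind a composite C/EBP-ATF element in genes of amino acid uptake, amino acid synthesis and tRNA charging. Some genes do not follow the division by symbol: GARS and KARS each encode both a cytosolic and a mitochondrial enzyme, and EPRS encodes a single protein that charges both glutamate and proline. FARSA and FARSB encode the 2 different subunits of cytosolic phenylalanyl-tRNA synthetase.

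Because 12 of the cytosolic genes are on a list of reported ATF4 targets, the promoters of the members were searched for the composite element, written TGATGNAA, and for the E-box CACGTG, a site class bound by MYC and related factors. The search covered both strands of the RefSeq promoter sequence (build GRCh38.p14), from 250 bases before to 50 bases after the gene start. A sequence was matched for 30 of the 36 members, and DARS, LARS, VARS, YARS, AARS2 and VARS2 were not matched. TGATGNAA was found in 3.67% of 27305 promoters of the same length and in 7 of the 30 matched members. Of these 7, 6 were among the 10 matched genes on the ATF4 target list, and YARS2 was the only one among the 14 matched mitochondrial genes. None of the 6 matched cytosolic genes outside the list held it. CACGTG was found in 7.43% of all promoters and in 4 members, of which 3 are mitochondrial and IARS is cytosolic. The 2 motifs did not overlap in IARS. A match is a description of letters, not evidence of a bound site.

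The windows that hold the composite element are shown because the 6 cytosolic genes among them recur in the comparisons below. Each is written 5′ to 3′ on the strand of its gene, with the motif or its reverse complement in capitals.
AARS (chr16:70289675-70289704, minus strand): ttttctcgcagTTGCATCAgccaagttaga
CARS (chr11:3057407-3057436, minus strand): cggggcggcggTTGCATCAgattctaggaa
IARS (chr9:92293692-92293721, minus strand): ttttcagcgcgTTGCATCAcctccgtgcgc
MARS (chr12:57488053-57488082, plus strand): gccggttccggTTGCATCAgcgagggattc
NARS (chr18:57621804-57621833, minus strand): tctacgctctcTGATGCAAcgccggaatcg
TARS (chr5:33440956-33440985, plus strand): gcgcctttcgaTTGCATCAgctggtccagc
YARS2 (chr12:32756076-32756105, minus strand): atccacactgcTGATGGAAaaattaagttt
In the 6 cytosolic genes the variable base made the same run of 8 letters, read on one strand or the other, whereas YARS2 differed at that base. The match began within 20 bases of the RefSeq gene start in CARS, IARS, MARS, NARS and TARS, and at position -187 of AARS and -197 of YARS2.

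The E-box windows are shown for comparison, since 3 of the 4 belong to the mitochondrial group.
IARS (chr9:92293867-92293894, minus strand): ggttcgttttcCACGTGgaggcgcaaaa
CARS2 (chr13:110706502-110706529, minus strand): gctgggatgcaCACGTGcttcgctaaca
EARS2 (chr16:23557349-23557376, minus strand): agggagaagccCACGTGtgctattccat
MARS2 (chr2:197705347-197705374, plus strand): tgcgcctctcaCACGTGctgtcagaacg
The 3 mitochondrial genes with this motif did not move alike with IgM: CARS2 fell, and EARS2 and MARS2 rose, in both WT and Y691F cells by the test. With library totals only in place of the scaling described below, neither call of MARS2 held (0.05, adjusted p = 0.415, and -0.0094, adjusted p = 0.878).

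Cytosolic synthetase mRNAs were in the median more abundant than mitochondrial ones, but the 2 groups overlapped. On the scale of reads scaled for gene length and depth (RPKM, deposited by the authors), which allows levels of different genes to be set side by side, the median over the cytosolic genes was 33.8 in untreated WT and that over the mitochondrial genes was 7.36. NARS, for asparagine, was highest at 116 RPKM, followed by FARSA at 89.7, AARS at 73.4, TARS2 at 71.3, GARS at 69.0 and EPRS at 59.8. SARS2, for mitochondrial serine, was lowest at 2.36 RPKM, though a same-strand gene covers nearly all of it, as given below. The mitochondrial IARS2 was at 27.7 RPKM, above several cytosolic genes. The cytosolic HARS (8.48), TARS (8.13), CARS (6.16) and DARS (5.92) lay among the mitochondrial genes. Of the 35 pairs of neighbours in this order, 15 had overlapping libraries in untreated WT, so the order is loose at many places. A bulk level cannot tell fewer cells of a kind from less RNA per cell.

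The mitochondrial threonyl-tRNA synthetase gene TARS2 was the largest exception to the difference between compartments. It was the only mitochondrial gene among the 10 highest in each of the 4 groups. Its libraries held 337, 341 and 345 CPM in untreated WT, 361, 363 and 341 CPM in WT with IgM, 335, 353 and 335 CPM in untreated Y691F, and 353, 330 and 350 CPM in Y691F with IgM. These ranges overlapped in all 4 of the comparisons between groups, and none of them gave a call under the TMM scaling. The cytosolic gene for the same amino acid, TARS, stood at 8.13 RPKM in untreated WT, a ratio of TARS to TARS2 of 0.114. The ratio was between 0.103 and 0.157 in the 4 groups. CARS and CARS2, for cysteine, were the only other pair with the mitochondrial gene higher, at a ratio of 0.774 in untreated WT, and the remaining 13 of 15 pairs had ratios above 1. RPKM depends on the gene length used, and the counts, totals and RPKM values together give about 7.03 kb for TARS and 5.01 kb for TARS2.

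**Figure D1:**
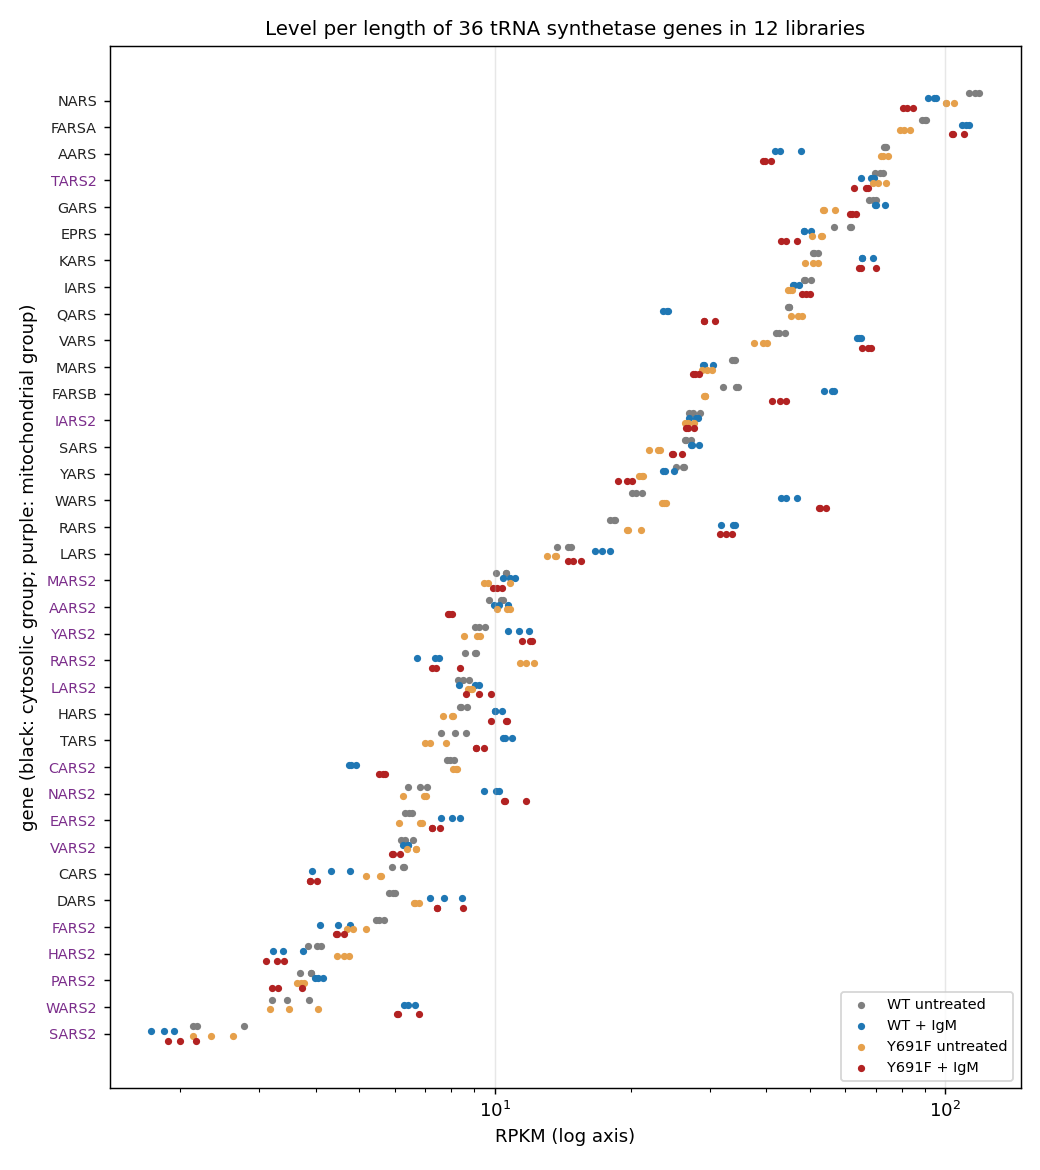
RPKM (log axis) of the 36 genes in the 12 libraries, with genes ordered by their mean in untreated WT and points coloured by group. TARS2 lies at 71.3 RPKM among the cytosolic genes, far above the other mitochondrial genes, which are at 27.7 RPKM (IARS2) or less in untreated WT.

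Receptor engagement in WT cells was followed by higher levels of most synthetase mRNAs, with large differences between single genes. Each gene was tested with edgeR's quasi-likelihood test over all 15112 genes, and a change was called at a Benjamini-Hochberg adjusted p under 0.05. Of the cytosolic genes, 12 rose and 6 fell, with a median log2 change of 0.29, and of the mitochondrial genes 10 rose and 3 fell, with a median of 0.14. Calls were common everywhere: 76.9% of all tested genes were called, 38.4% higher and 38.5% lower, with a median of 0.00. The summed CPM of the 20 cytosolic genes was 4524 ± 39.0 (SD, n = 3) untreated and 5137 ± 85.3 with IgM, 13.5% higher. The mitochondrial sum was 964 ± 2.29 and 1032 ± 22.7 CPM, 7.10% higher. All 3 IgM libraries were above all 3 untreated ones for 13 cytosolic and 10 mitochondrial genes and below them for 6 and 3. Of all tested genes 77.7% were so separated, 38.9% above and 38.8% below. All of these values are relative to the TMM scaling. As a share of all counts, the cytosolic sum was 0.474% untreated and 0.490% with IgM, and the mitochondrial sum turned to slightly lower with IgM, from 0.101% to 0.0985%. With library totals only, the median over all tested genes was -0.13 and the split became 10 higher and 8 lower for cytosolic, and 4 higher and 6 lower for mitochondrial genes.

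In Y691F cells the same contrast, which shares no library with the WT one but was read from the same fit, gave 13 higher and 5 lower cytosolic genes (median 0.31) and 7 higher and 4 lower mitochondrial genes (median 0.02). Over all tested genes 75.8% were called, 37.1% higher and 38.7% lower. Separated libraries were seen for 14 cytosolic and 7 mitochondrial genes above and 4 and 4 below, against 75.6% of all tested genes (37.2% above and 38.4% below). The cytosolic sum was 4143 ± 52.2 CPM untreated and 4942 ± 73.7 CPM with IgM, 19.3% higher. The mitochondrial sum was 977 ± 9.06 and 1013 ± 15.9 CPM. As a share of all counts, the cytosolic sum was 0.440% and 0.466%, and the mitochondrial sum was lower with IgM, at 0.104% and 0.0955%. Altogether 12 cytosolic and 7 mitochondrial genes were called higher with IgM in both forms, 5 and 2 were called lower in both, and AARS2 was called higher in WT and lower in Y691F. How many of all tested genes were called alike in both forms was not counted, so these numbers have no share to be set against. Scaling by library totals turned the mitochondrial split in Y691F to 4 higher and 7 lower.

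The tryptophanyl-tRNA synthetase genes of both compartments rose most in their groups. WARS, which is also known as an interferon-inducible gene, was at 159, 153 and 149 CPM in untreated WT and 356, 381 and 362 CPM with IgM. In Y691F it was at 175, 179 and 177 CPM untreated and 436, 430 and 441 CPM with IgM. The IgM libraries were far above the untreated ones in both forms, with log2 changes of 1.25 (SE 0.03, adjusted p = 8.79e-54) and 1.30 (SE 0.03, adjusted p = 9.78e-56). WARS2 was at 14.6, 15.5 and 17.3 CPM in untreated WT and 31.9, 32.7 and 31.2 CPM with IgM. In Y691F the values were 15.5, 14.3 and 18.5 CPM, and 30.5, 30.1 and 33.3 CPM. These groups did not overlap either, and WARS2 rose by 1.02 (SE 0.07, adjusted p = 5.45e-23) in WT and 0.96 (SE 0.07, adjusted p = 8.17e-22) in Y691F. WARS and WARS2 are on different chromosomes, 14 and 1. Both were thus about 2-fold higher: 2.38-fold and 2.46-fold for WARS, and 2.02-fold and 1.94-fold for WARS2.

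The next largest cytosolic rises, those of RARS, VARS and FARSB, were of genes outside the ATF4 target list. RARS, which encodes the arginyl enzyme of the multisynthetase complex, was at 73.0, 73.8 and 73.5 CPM in untreated WT and 150, 149 and 140 CPM with IgM. In Y691F it was at 77.7, 84.5 and 80.0 CPM, and 145, 140 and 147 CPM. Its rise was 0.997 (SE 0.04, adjusted p = 1.10e-40) in WT and 0.83 (SE 0.04, adjusted p = 1.01e-35) in Y691F, with no overlap between untreated and IgM libraries. VARS, for valine, went from 318, 303 and 298 CPM to 500, 499 and 510 CPM in WT, and from 283, 281 and 271 CPM to 533, 513 and 531 CPM in Y691F. Its groups were well apart in both forms, and the log2 changes were 0.71 (SE 0.03, adjusted p = 1.90e-38) and 0.92 (SE 0.03, adjusted p = 4.02e-46). FARSB, the beta subunit of the phenylalanyl enzyme, went from 128, 136 and 135 CPM to 247, 241 and 234 CPM in WT, and from 114, 115 and 117 CPM to 194, 180 and 184 CPM in Y691F. It rose by 0.86 (SE 0.03, adjusted p = 7.36e-40) and 0.69 (SE 0.03, adjusted p = 1.87e-32). FARSA, its partner, rose by 0.44 and 0.52.

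KARS, the lysyl enzyme of both compartments, was at 245, 247 and 242 CPM in untreated WT and 344, 358 and 343 CPM with IgM. In Y691F it was at 240, 248 and 235 CPM, and 339, 340 and 363 CPM. The untreated values of both forms overlapped and so did the IgM values, while IgM and untreated libraries were apart, with rises of 0.51 (SE 0.03, adjusted p = 1.92e-27) and 0.53 (SE 0.03, adjusted p = 2.13e-28). GARS, the glycyl enzyme of both compartments, had smaller rises, from 339, 340 and 329 CPM to 375, 390 and 376 CPM in WT (0.18, SE 0.03, adjusted p = 5.10e-08), and from 257, 277 and 265 CPM to 332, 332 and 335 CPM in Y691F (0.32, SE 0.03, adjusted p = 6.19e-17). The WT rise of GARS was 0.05 and not called with library totals only (adjusted p = 0.124). SARS, for serine, was at 121, 122 and 118 CPM and 136, 139 and 135 CPM in WT, and at 103, 105 and 100 CPM and 124, 123 and 128 CPM in Y691F. Its changes were 0.18 and 0.28, and that in WT was also not called with library totals only (0.05, adjusted p = 0.180).

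A smaller set fell. QARS, the glutaminyl enzyme, fell most in WT: its libraries held 246, 242 and 240 CPM untreated and 141, 143 and 143 CPM with IgM, a log2 change of -0.77 (SE 0.03, adjusted p = 5.12e-38). In Y691F it was at 251, 260 and 249 CPM, and 175, 173 and 181 CPM, a change of -0.52 (SE 0.03, adjusted p = 8.68e-28). QARS and RARS are both members of the multisynthetase complex and moved in opposite directions. AARS, the alanyl enzyme, was at 390, 386 and 387 CPM in untreated WT and 250, 275 and 243 CPM with IgM. In Y691F it was at 379, 394 and 384 CPM, and 231, 238 and 229 CPM. The changes of AARS were -0.60 (SE 0.03, adjusted p = 1.06e-29) and -0.73 (SE 0.03, adjusted p = 4.60e-35), and IgM and untreated libraries did not overlap in either form. CARS, for cysteine, fell by 0.37 and 0.33.

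NARS, the most abundant member in untreated cells, was at 547, 567 and 554 CPM in untreated WT and 486, 498 and 498 CPM with IgM. In Y691F it was at 476, 480 and 506 CPM, and 429, 435 and 442 CPM. IgM libraries of NARS were below the untreated ones in both forms, with falls of similar size, -0.17 (SE 0.03, adjusted p = 6.14e-08) and -0.16 (SE 0.03, adjusted p = 2.72e-07). EPRS, the bifunctional enzyme of the complex, was at 364, 393 and 390 CPM and 342, 350 and 342 CPM in WT, and at 319, 340 and 342 CPM and 305, 311 and 326 CPM in Y691F. Its groups were apart in WT (-0.15, SE 0.03, adjusted p = 8.33e-06) and overlapped in Y691F (-0.09, SE 0.03, adjusted p = 0.00839). The EPRS call in Y691F was lost without Y691F_untreated replicate 2 (adjusted p = 0.0506), Y691F_untreated replicate 3 (adjusted p = 0.0583) or Y691F_IgM replicate 1 (adjusted p = 0.0904). YARS, for tyrosine, had the smallest change of the cytosolic genes in both forms. Its libraries overlapped between IgM and untreated cells, at 245, 253 and 250 CPM and 251, 262 and 253 CPM in WT, and 201, 205 and 203 CPM and 200, 209 and 211 CPM in Y691F. Its log2 values were 0.03 and 0.02 (adjusted p = 0.315 and 0.503). Scaled by library totals, YARS was called lower in both forms (-0.10, adjusted p = 0.00166, and -0.15, adjusted p = 1.58e-05).

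**Figure D2:**
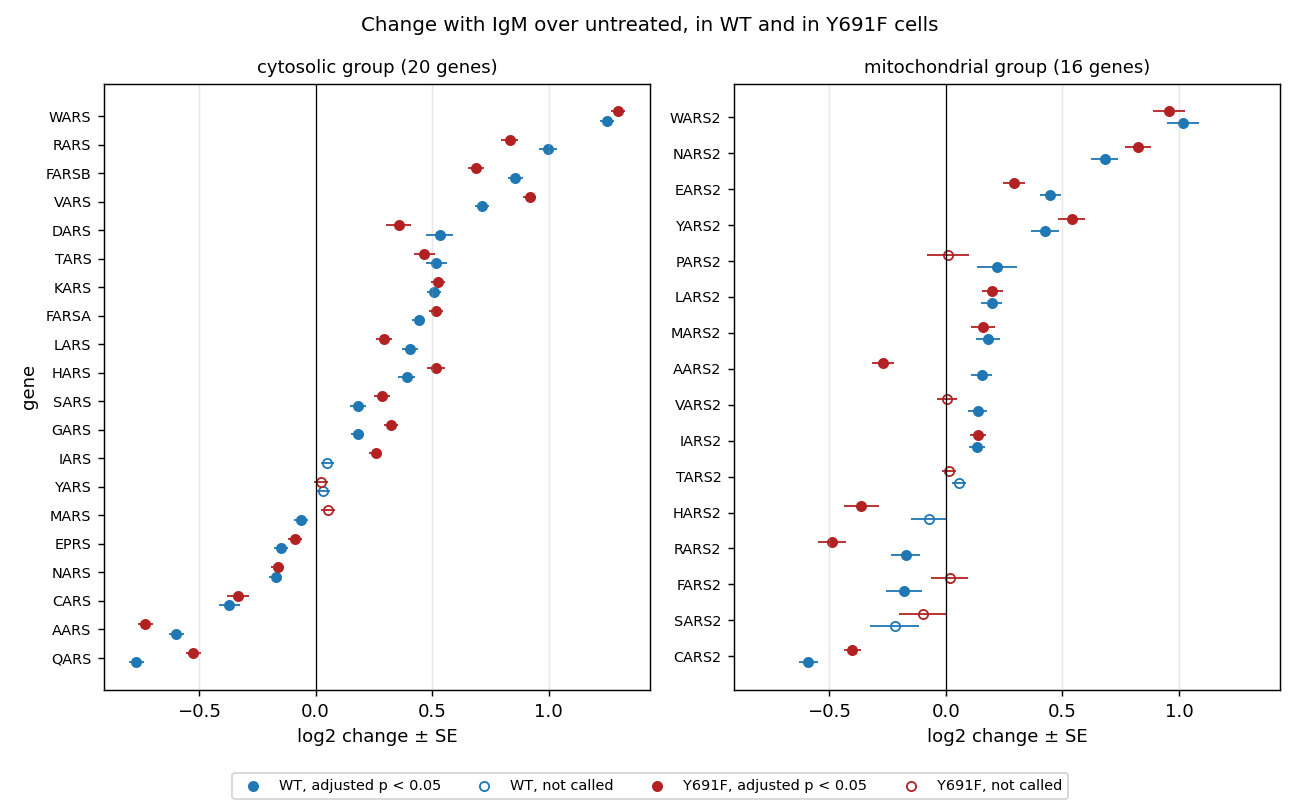
Log2 change with IgM over untreated (points, ± SE) for each gene in WT (blue) and Y691F (red), with the 20 cytosolic-group genes at left and the 16 mitochondrial-group genes at right; filled points had an adjusted p under 0.05. WARS and WARS2 lead both panels, and QARS, AARS and CARS2 lie lowest in WT.

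Among the other mitochondrial genes, NARS2 rose and CARS2 fell most in WT. NARS2, for asparagine, was at 25.5, 26 and 23.6 CPM and 41.1, 38.1 and 41.6 CPM in WT, and at 25.7, 23.2 and 26 CPM and 43.3, 42.6 and 47.1 CPM in Y691F. Its rises were 0.68 (SE 0.06, adjusted p = 1.31e-18) and 0.82 (SE 0.06, adjusted p = 1.22e-23), with IgM libraries above the untreated ones in both forms. CARS2, for cysteine, was at 98.4, 95.7 and 98.9 CPM and 66.6, 63.3 and 64.8 CPM in WT, and at 99.7, 99.0 and 102 CPM and 76.8, 74.7 and 76.0 CPM in Y691F. It fell by 0.59 (SE 0.04, adjusted p = 2.06e-24) and 0.40 (SE 0.04, adjusted p = 2.49e-16), with no overlap. YARS2, for tyrosine and the mitochondrial gene with the composite element, was at 24.2, 23.2 and 22.7 CPM and 29.8, 32.7 and 31.5 CPM in WT, and at 23.2, 23.0 and 21.8 CPM and 33.5, 33.6 and 31.5 CPM in Y691F. It rose in both, by 0.42 (SE 0.06, adjusted p = 1.35e-09) and 0.54 (SE 0.06, adjusted p = 1.67e-13), whereas cytosolic YARS did not pass the test.

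Smaller differences filled the rest of the mitochondrial group. LARS2, for leucine, was at 54.2, 52.1 and 55.3 CPM and 62.9, 63.6 and 58.0 CPM in WT, and at 55.6, 55.0 and 56.6 CPM and 60.5, 64.2 and 67.5 CPM in Y691F. IgM libraries of LARS2 were higher in both forms (0.20 and 0.20), but neither change was called with library totals only (0.06 and 0.03). VARS2, for valine, was at 65.7, 61.1 and 62.4 CPM and 70.3, 69.3 and 68.1 CPM in WT (0.14, SE 0.04, adjusted p = 0.00278), and at 65.3, 66.3 and 64.0 CPM and 67.5, 64.5 and 64.1 CPM in Y691F, where the groups overlapped (0.00, adjusted p = 0.928). PARS2, for proline, was at 10.9, 10.1 and 10.7 CPM and 12.6, 12.1 and 12.0 CPM in WT (0.22, SE 0.09, adjusted p = 0.0190), and overlapped in Y691F at 10.1, 10.4 and 10.1 CPM and 10.1, 9.70 and 11.1 CPM (0.01, adjusted p = 0.938). FARS2, for phenylalanine, was at 15.8, 14.9 and 15.2 CPM and 13.6, 14.3 and 12.4 CPM in WT (-0.18, SE 0.08, adjusted p = 0.0332), and overlapped in Y691F at 13.2, 14.3 and 13.1 CPM and 13.6, 14.0 and 13.4 CPM (0.02, adjusted p = 0.853). Scaled by library totals, the WT rises of VARS2 (0.0022, adjusted p = 0.963) and PARS2 (0.084, adjusted p = 0.377) were not called, and VARS2 was called lower in Y691F (-0.16, adjusted p = 2.66e-04). The responses of VARS2, PARS2 and FARS2 were not called different between the forms (adjusted p = 0.0967, 0.227 and 0.203). EARS2, for glutamate, rose by 0.45 and 0.29, IARS2, for isoleucine, by 0.13 and 0.14, and MARS2, for methionine, by 0.18 and 0.16. Neither rise of IARS2 was called when scaled by library totals (adjusted p = 0.995 and 0.388). SARS2 had overlapping groups and no call in either form.

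Some calls in WT were lost or gained when 1 library was left out. The PARS2 call was lost without WT_untreated replicate 2 (0.19, adjusted p = 0.0796) or WT_IgM replicate 1 (0.20, adjusted p = 0.0670). That of FARS2 was lost without WT_untreated replicate 1 (adjusted p = 0.104), WT_untreated replicate 3 (adjusted p = 0.0543), WT_IgM replicate 1 (adjusted p = 0.0517) or WT_IgM replicate 3 (adjusted p = 0.165). MARS, the methionyl enzyme of the complex, was called lower at -0.06 (adjusted p = 0.0409), and this call was lost without any one of the 3 untreated WT libraries (adjusted p = 0.0743 to 0.107), WT_IgM replicate 1 (adjusted p = 0.126) or WT_IgM replicate 3 (adjusted p = 0.109). The reverse held for SARS2, whose -0.22 (adjusted p = 0.0523) passed the threshold without WT_untreated replicate 1 (adjusted p = 0.0401), WT_untreated replicate 2 (adjusted p = 0.0200), WT_IgM replicate 3 (adjusted p = 0.0403) or any one of the 3 Y691F_IgM libraries (adjusted p = 0.0474 to 0.0493). TARS2, at 0.06, passed it without WT_IgM replicate 3 (0.08, adjusted p = 0.0274) or Y691F_untreated replicate 2 (adjusted p = 0.0498). Scaled by library totals, TARS2 was instead called lower with IgM in WT (-0.076, adjusted p = 0.0139) and in Y691F (-0.16, adjusted p = 1.86e-06).

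Both compartments were compared for the 15 amino acid pairs. With IgM in WT, both genes of a pair were called in 10, in opposite directions in 6 and in the same direction in 4. In Y691F both were called in 9, opposite in 4 and alike in 5. Calls were common among all tested genes too, at 76.9% in WT (38.4% higher and 38.5% lower). In Y691F they were 75.8% (37.1% higher and 38.7% lower). Whether pairs or complex members differ in this from other genes was not tested. RARS rose while RARS2 fell in both forms, and NARS fell while NARS2 rose. Counted by complex, 4 of the 8 multisynthetase members rose and 3 fell in WT (5 and 2 in Y691F), against 8 higher and 3 lower of the other 12 cytosolic genes in both forms. The ratio of RARS to RARS2 in RPKM went from 2.05 to 4.62 in WT and from 1.71 to 4.25 in Y691F.

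Untreated Y691F cells had lower levels of most cytosolic synthetase mRNAs than untreated WT cells. The test called 14 of the 20 cytosolic genes lower and 3 higher, with a median log2 difference of -0.14. Among the 16 mitochondrial genes none was called lower and 2 were called higher, with a median of 0.02. Over all tested genes 31.2% were called, 15.1% higher and 16.1% lower, and the median was -0.01. The 3 Y691F libraries were all above those of WT for 4 cytosolic and 3 mitochondrial genes and all below for 12 and 1, against 40% of all tested genes (19.6% above and 20.4% below). Relative to WT, the cytosolic sum was at -8.42% and the mitochondrial sum at 1.31%. The differences were small: the largest fall, that of GARS, was 1.26-fold. Mitochondrial genes were less abundant and had a larger median SE (0.05, against 0.03 for cytosolic genes), so that small differences were less detectable there. Their differences were also smaller, with a median absolute log2 of 0.046, against 0.163 for cytosolic genes. What accounts for the fewer mitochondrial calls was not tested. FARS2, at -0.18 with a SE of 0.08, was not called (adjusted p = 0.0633), though it passed without Y691F_untreated replicate 2 (-0.22, adjusted p = 0.0397).

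With IgM, where no library is shared with the untreated comparison, 11 cytosolic genes were lower in Y691F and 3 higher, with a median of -0.11. The mitochondrial genes were called lower in 3 cases and higher in 2, with a median of -0.03. Over all tested genes 42.1% were called, 21.9% higher and 20.2% lower. Libraries of the forms were separated for 4 cytosolic and 2 mitochondrial genes above and 11 and 4 below, against 50.2% of all tested genes (25.6% above and 24.6% below). Of the cytosolic genes, 10 were called lower in both conditions: CARS, EPRS, FARSB, GARS, LARS, MARS, NARS, SARS, TARS and YARS. WARS alone was called higher in both. No mitochondrial gene was called in both conditions. How many of all tested genes were called alike in both conditions was not counted. The cytosolic sum was -3.79% and the mitochondrial sum -1.91% relative to WT.

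**Figure D3:**
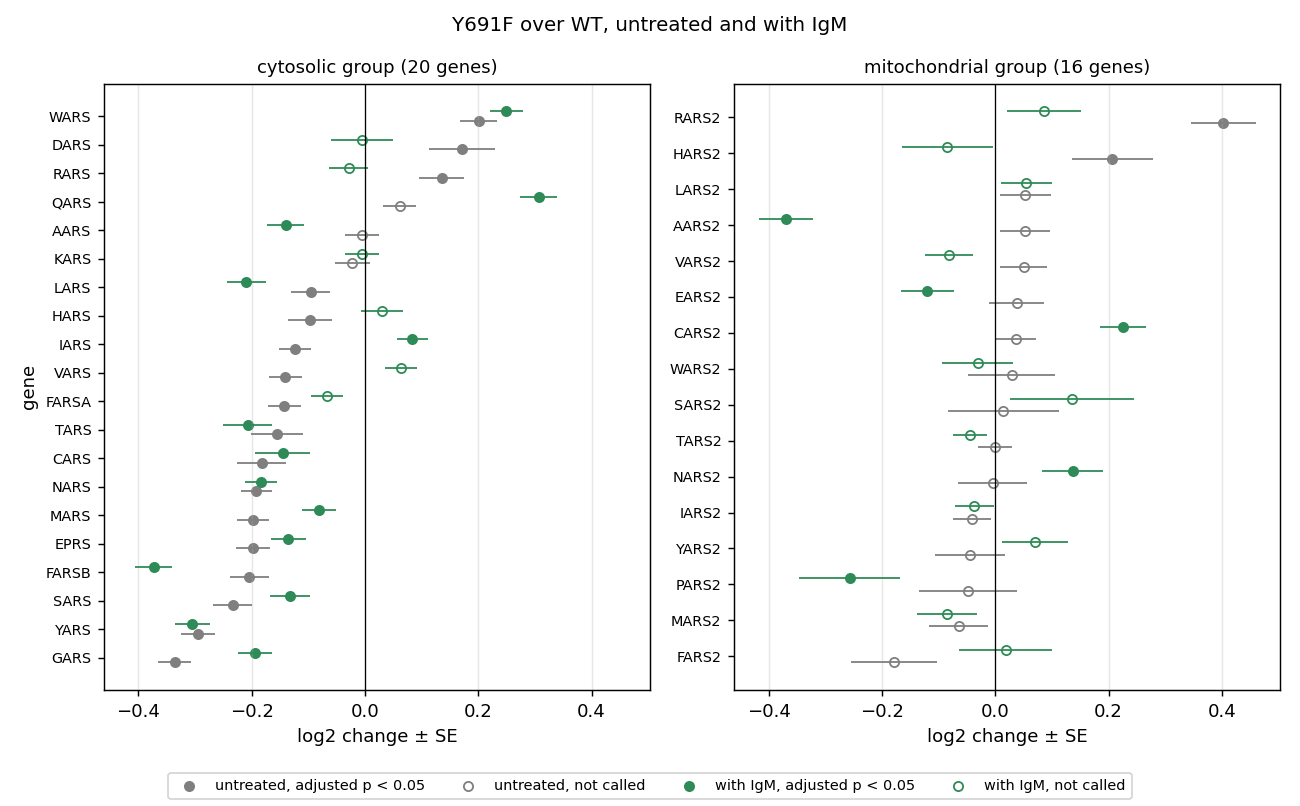
Log2 difference of Y691F over WT (points, ± SE) for each gene, untreated (grey) and with IgM (green), with the cytosolic group at left and the mitochondrial group at right; filled points had an adjusted p under 0.05. Most cytosolic points lie left of 0 in both conditions, whereas the untreated mitochondrial points scatter about 0 except RARS2 and HARS2.

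GARS showed the largest cytosolic difference between untreated forms. The 3 untreated Y691F libraries given above (257 to 277 CPM) were all below the 3 of WT (329 to 340 CPM), a log2 difference of -0.34 (SE 0.03, adjusted p = 6.86e-17), and with IgM the difference was -0.19 (SE 0.03, adjusted p = 3.37e-08). YARS was lower by nearly the same amount in both conditions, at -0.29 (SE 0.03, adjusted p = 8.64e-14) and -0.30 (SE 0.03, adjusted p = 2.64e-14), and its Y691F libraries did not overlap those of WT. SARS differed by -0.23 (SE 0.03, adjusted p = 3.77e-08) untreated and -0.13 (SE 0.03, adjusted p = 0.00101) with IgM. FARSB had the largest difference with IgM, -0.37 (SE 0.03, adjusted p = 2.71e-17), after -0.20 (SE 0.03, adjusted p = 1.14e-06) untreated. Its partner FARSA was at -0.14 untreated (adjusted p = 5.81e-05), and with IgM it was at -0.07 and not called (adjusted p = 0.0544).

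NARS and EPRS, both on the ATF4 target list, were lower in Y691F in both conditions. NARS differed by -0.19 (SE 0.03, adjusted p = 1.81e-08) untreated and -0.18 (SE 0.03, adjusted p = 6.79e-08) with IgM, and EPRS by -0.20 (SE 0.03, adjusted p = 7.01e-08) and -0.14 (SE 0.03, adjusted p = 1.68e-04). In neither condition did the libraries of either gene overlap between forms. WARS went the other way, at 0.20 (SE 0.03, adjusted p = 2.60e-07) untreated and 0.25 (SE 0.03, adjusted p = 8.39e-12) with IgM. KARS did not differ by the test in either condition (-0.02 and -0.00, adjusted p = 0.636 and 0.920), and its libraries overlapped. QARS was at 0.06 untreated (adjusted p = 0.110) and higher in Y691F by 0.31 with IgM (SE 0.03, adjusted p = 2.42e-13). Untreated, QARS passed the threshold under the scaling by library totals (0.08, adjusted p = 0.0238) and when genes had to reach 5 CPM in 3 libraries (0.08, adjusted p = 0.0165).

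HARS and HARS2, the histidyl genes, lie head to head on chromosome 5 (HARS on the minus strand, HARS2 on the plus strand) and overlap by 599 bases. HARS was at 83.7, 85.4 and 82.6 CPM in untreated WT and 79.1, 75.8 and 80.5 CPM in untreated Y691F, apart by little (-0.10, SE 0.04, adjusted p = 0.0478). With IgM it was at 113, 108 and 109 CPM and 107, 115 and 114 CPM, overlapping between forms. HARS rose with IgM in both forms, by 0.39 (SE 0.04, adjusted p = 8.94e-16) and 0.52 (SE 0.04, adjusted p = 5.79e-22). HARS2 was at 15.5, 16.4 and 16 CPM and 15, 16.3 and 14.1 CPM in WT, and at 18.3, 17.8 and 19.2 CPM and 13.8, 14.9 and 14.2 CPM in Y691F. It was higher in untreated Y691F than in untreated WT (0.21, SE 0.07, adjusted p = 0.0183), and fell with IgM in Y691F (-0.36, SE 0.07, adjusted p = 9.73e-06). In WT its change was not called (-0.07, adjusted p = 0.392), and the difference between the responses was -0.29 (SE 0.11, adjusted p = 0.0334). How reads in the shared bases were counted was not given in the sources used here. In the untreated comparison, the HARS call was lost in 11 of the 12 fits that left out 1 library (adjusted p = 0.0576 to 0.199), and that of HARS2 without WT_untreated replicate 1 (adjusted p = 0.0724) or Y691F_untreated replicate 3 (adjusted p = 0.0840).

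Mitochondrial differences between the forms were carried by few genes. RARS2, for arginine, was at 25.8, 27.0 and 26.9 CPM in untreated WT and 33.5, 35.1 and 37.0 CPM in untreated Y691F, with no overlap (0.40, SE 0.06, adjusted p = 1.08e-08). With IgM it was at 24.7, 23.9 and 22 CPM and 24.0, 24.3 and 27.1 CPM, and the forms overlapped (0.09, adjusted p = 0.304). RARS2 fell with IgM by 0.17 in WT (adjusted p = 0.0112) and by 0.49 in Y691F (SE 0.06, adjusted p = 6.68e-12), and the WT call was lost without WT_IgM replicate 3 (-0.13, adjusted p = 0.0808). AARS2, for alanine, overlapped between untreated forms at 52.9, 51.7 and 48.5 CPM and 53.9, 53.6 and 51.6 CPM. With IgM it was at 55.3, 58.6 and 56.5 CPM in WT and 44.9, 44.0 and 43.1 CPM in Y691F, 1.29-fold lower (log2 -0.37, SE 0.05, adjusted p = 2.42e-10). CARS2 was higher in Y691F with IgM by 0.23 (SE 0.04, adjusted p = 3.13e-06), PARS2 lower at -0.26 (SE 0.09, adjusted p = 0.0142) and NARS2 higher by 0.14 (SE 0.05, adjusted p = 0.0321). The PARS2 call was lost without WT_IgM replicate 1 (adjusted p = 0.0637), Y691F_IgM replicate 1 (adjusted p = 0.0636) or Y691F_IgM replicate 2 (adjusted p = 0.109), and that of NARS2 without WT_IgM replicate 2 (adjusted p = 0.167) or Y691F_IgM replicate 3 (adjusted p = 0.178). EARS2, at -0.12 (adjusted p = 0.0289), lost its call without WT_IgM replicate 2 (adjusted p = 0.249), WT_IgM replicate 3 (adjusted p = 0.101), Y691F_IgM replicate 1 (adjusted p = 0.115) or Y691F_IgM replicate 3 (adjusted p = 0.131).

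**Figure D4:**
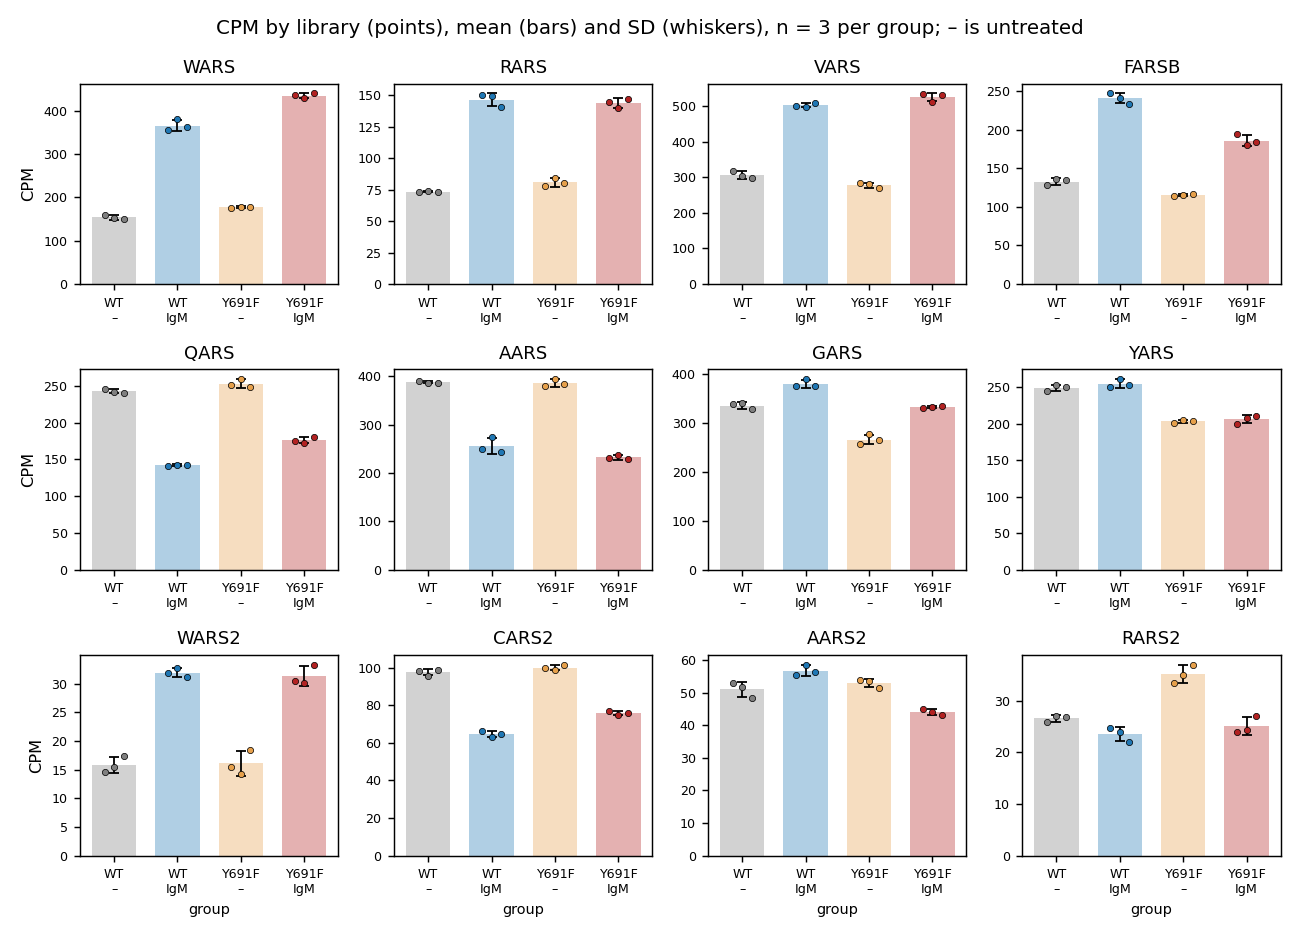
CPM of 12 synthetase genes in each library (points), with the mean of each group (bars) and its SD (whiskers), n = 3 per group. FARSB, GARS and YARS sit lower in Y691F than in WT in both conditions, QARS and AARS2 differ between the forms with IgM, and RARS2 differs between them untreated.

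Leaving out WT_IgM replicate 2 lowered the number of calls among the members and among all tested genes. Without this library, the Y691F difference with IgM was no longer called for AARS (-0.07, adjusted p = 0.102, from -0.14), CARS (-0.06, adjusted p = 0.401, from -0.15) or MARS (-0.05, adjusted p = 0.259, from -0.08), and 11 rather than 14 cytosolic genes were called. Over all tested genes the calls fell from 6365 to 5564, the lowest number when 1 library was left out. In WT_IgM replicate 2, AARS and CARS were at 275 and 61.2 CPM, against 243 to 250 CPM and 51.0 to 56.1 CPM in the other WT libraries with IgM. CARS also lost its call without Y691F_IgM replicate 1 (adjusted p = 0.0545) or Y691F_IgM replicate 2 (adjusted p = 0.0614), and MARS without WT_IgM replicate 3 (adjusted p = 0.0505), Y691F_IgM replicate 1 (adjusted p = 0.124) or Y691F_IgM replicate 2 (adjusted p = 0.109). VARS, not called at 0.06 (adjusted p = 0.0615), passed without WT_IgM replicate 3 (adjusted p = 0.0393), Y691F_untreated replicate 3 (adjusted p = 0.0498) or Y691F_IgM replicate 2 (adjusted p = 0.0116). FARSA passed without Y691F_untreated replicate 2 (adjusted p = 0.0456), Y691F_untreated replicate 3 (adjusted p = 0.0424) or Y691F_IgM replicate 3 (adjusted p = 0.0353).

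Some calls between untreated forms were also lost when 1 library was left out. DARS, for aspartate, was higher in Y691F by 0.17 (adjusted p = 0.0158) and RARS by 0.14 (adjusted p = 0.00446). DARS lost its call without WT_untreated replicate 3 (adjusted p = 0.0655) or Y691F_untreated replicate 3 (adjusted p = 0.0617), and RARS without Y691F_untreated replicate 2 (0.10, adjusted p = 0.0634). LARS, for leucine, was at -0.10 (adjusted p = 0.0258) and lost its call without WT_untreated replicate 2 (adjusted p = 0.163), WT_untreated replicate 3 (adjusted p = 0.0822) or Y691F_untreated replicate 1 (adjusted p = 0.238). TARS was at -0.16 (adjusted p = 0.00569), lost without WT_untreated replicate 2 (adjusted p = 0.126) or Y691F_untreated replicate 1 (adjusted p = 0.0911).

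The IgM response itself differed between the forms for 12 of the 36 genes, tested as an interaction: 5 higher and 3 lower of the cytosolic genes, and 1 higher and 3 lower of the mitochondrial ones. Here "higher" means that the log2 response in Y691F minus that in WT was above 0. Over all tested genes 25.7% were called, 14.7% higher and 11% lower. The fall of QARS was smaller in Y691F (difference 0.25, SE 0.04, adjusted p = 5.00e-06) and the rise of VARS larger (0.20, SE 0.04, adjusted p = 3.95e-05). IARS, the isoleucyl enzyme of the complex, was at 425, 434 and 422 CPM and 440, 447 and 440 CPM in WT, and at 383, 392 and 401 CPM and 473, 460 and 473 CPM in Y691F. Its libraries were apart in Y691F (0.26, SE 0.03, adjusted p = 8.47e-14), while the shift in WT was not called (0.05, adjusted p = 0.0971), and the responses differed by 0.21 (SE 0.04, adjusted p = 1.55e-05). IARS was lower in Y691F untreated (-0.12, adjusted p = 2.05e-04) and higher with IgM (0.08, adjusted p = 0.0105). With library totals only, the WT response of IARS was called lower (-0.08, adjusted p = 0.00339), and the cytosolic split of the interaction to 4 higher and 5 lower.

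AARS2 had the largest difference in response of all members. It rose by 0.15 in WT (SE 0.05, adjusted p = 0.00177) and fell by 0.27 in Y691F (SE 0.05, adjusted p = 3.12e-07), an interaction of -0.42 (SE 0.07, adjusted p = 1.48e-07). With library totals only, the WT rise was 0.02 and not called (adjusted p = 0.701), whereas the interaction was called in all 19 alternatives, at -0.46 to -0.39. AARS, of the cytosol, also had a lower response in Y691F (-0.13, SE 0.04, adjusted p = 0.0166), which was lost without WT_IgM replicate 2 (-0.07, adjusted p = 0.296) or Y691F_IgM replicate 1 (-0.12, adjusted p = 0.0575). NARS and LARS2 had the smallest interactions of their groups, 0.01 (SE 0.04, adjusted p = 0.915) and 0.00 (SE 0.06, adjusted p = 0.990).

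The cytosolic genes were also counted by the ATF4 target list. Between untreated forms, 10 of the 12 listed genes were lower in Y691F and WARS was higher, with AARS at -0.01 and not called (adjusted p = 0.915). Their median was -0.19. With IgM, 10 of the 12 were lower and WARS and IARS were higher, with a median of -0.14. Among the 8 cytosolic genes not on the list, 4 were lower and 2 higher untreated (median -0.06), and FARSB was lower and QARS higher with IgM (median -0.00). In the IgM response the listed genes also had lower medians than the others. Of the listed genes 5 rose and 5 fell in WT and 6 rose and 4 fell in Y691F, with medians of 0.04 and 0.15. Of the 8 others 7 rose and QARS fell in both, with medians of 0.52 and 0.52. The shares called over all tested genes in each comparison are those given above. Scaled by library totals, the listed genes became 3 higher and 7 lower in WT (median -0.09) and 6 and 6 in Y691F (median -0.01), and the counts of the others stayed at 7 higher and 1 lower. The list comes from background knowledge and the groups were described with earlier results of these data known, so no test was made of it.

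The 6 cytosolic genes with the composite element followed no single direction with IgM. AARS, CARS and NARS fell and TARS rose (0.52 and 0.47) in both forms. MARS fell in WT and stood at 0.05 in Y691F (adjusted p = 0.102), where library totals gave a fall (-0.12, adjusted p = 1.75e-04), and IARS rose in Y691F. Between the forms, CARS, IARS, MARS, NARS and TARS were lower in untreated Y691F. By class of the enzyme fold, 6 of 9 class I genes were lower and 2 higher in untreated Y691F (median -0.12). Of the 10 class II genes 7 were lower and 1 higher (median -0.15). The cytosolic group as a whole had 14 of 20 lower and 3 higher, against 16.1% and 15.1% of all tested genes.

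**Figure D5:**
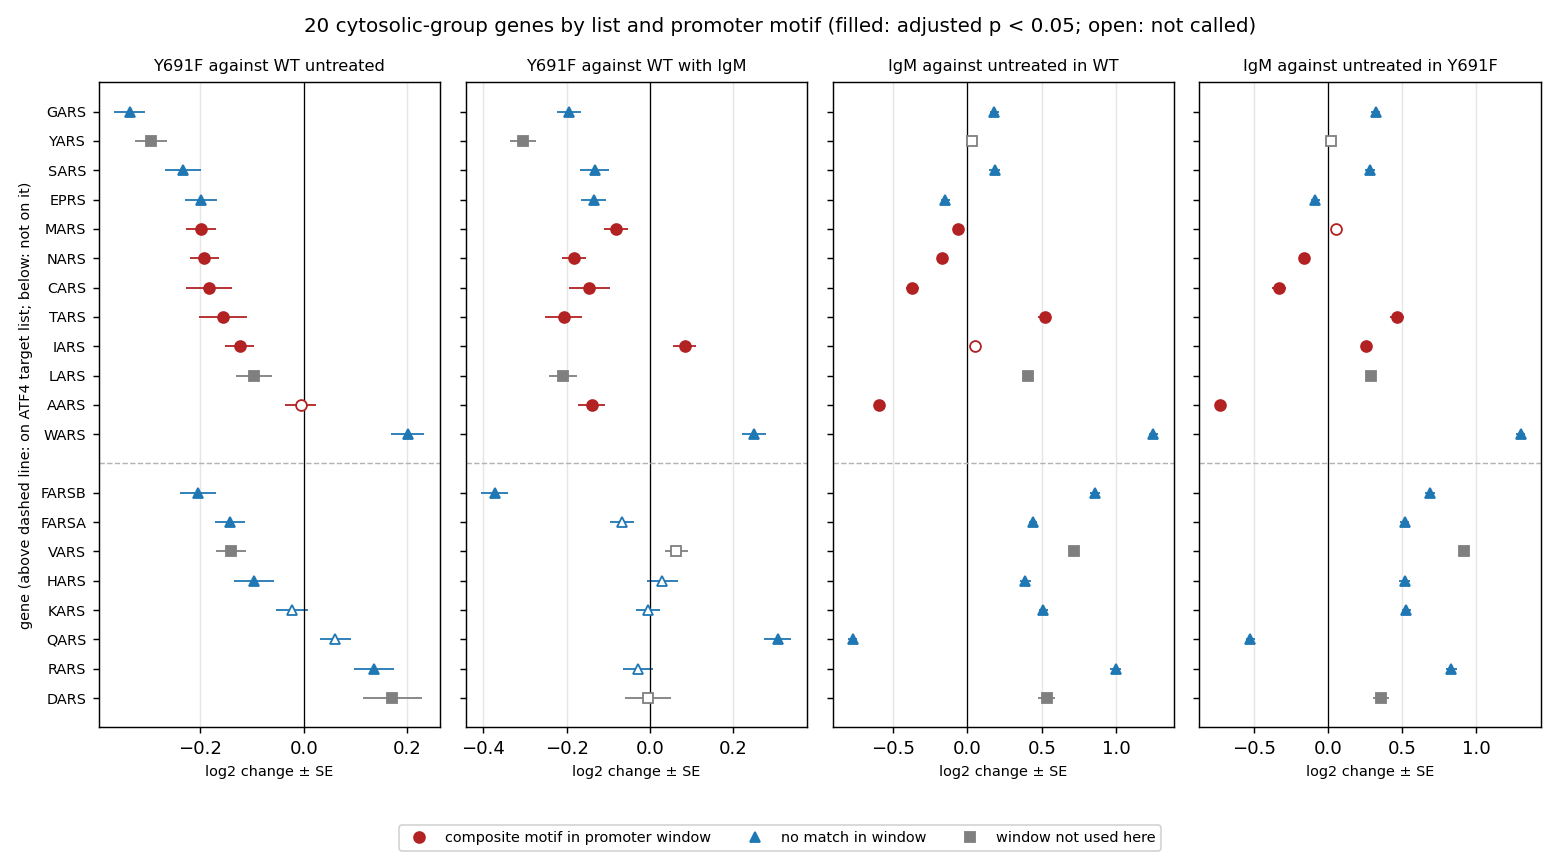
Log2 changes (± SE) of the 20 cytosolic-group genes in 4 comparisons, with genes on the ATF4 target list above the dashed line and the other 8 below it; filled symbols had an adjusted p under 0.05. Red circles mark a TGATGNAA match in the promoter window, blue triangles no match, and grey squares windows not used here. Of the listed genes 10 lie below 0 and are called in each of the comparisons of Y691F with WT, and 7 of the 8 others rise with IgM.

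Genes of the amino acid response outside the synthetases were read from the same fit, using a list of 25 of which 22 were tested. In untreated Y691F 17 were lower and 4 higher than in untreated WT (median -0.26), and with IgM 8 were lower and 8 higher (median -0.03). Over all tested genes, 16.1% were lower and 15.1% higher untreated, and 20.2% lower and 21.9% higher with IgM. IgM raised 13 and lowered 9 in WT, and raised 14 and lowered 7 in Y691F. Of all tested genes, IgM raised 38.4% and lowered 38.5% in WT, and raised 37.1% and lowered 38.7% in Y691F. The log2 response in Y691F minus that in WT was called above 0 for 15 of the 22 and below 0 for 1 (median 0.28), against the 14.7% and 11% of all tested genes given above. For a gene that fell, a value above 0 is a smaller fall in Y691F. ATF4 mRNA rose by 0.98 in WT (adjusted p = 8.90e-49) and 1.20 in Y691F (adjusted p = 3.84e-55). DDIT3, which encodes the stress transcription factor CHOP, rose by 3.87 and 3.75 (adjusted p = 4.97e-77 and 1.78e-69), and the amino acid transporter genes SLC3A2 and SLC7A5 rose by 1.86 and 1.52 in WT and by 1.97 and 2.02 in Y691F. The serine synthesis genes PHGDH and PSAT1 fell: PHGDH changed by -1.14 in WT and -0.82 in Y691F, and PSAT1 by -1.80 and -1.28. They were chosen after their values were seen, and PSPH, also on the list, is not described here. EIF2AK4, for GCN2, was higher in Y691F, by 0.27 untreated and 1.07 with IgM (adjusted p = 4.14e-06 and 2.47e-33). MARS and DDIT3 overlap by 982 bases on opposite strands, and the counter's use of strand was not given in the sources used here.

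Partners of the synthetases were described in the same way. All 3 scaffold genes of the multisynthetase complex rose with IgM in both forms: AIMP1 by 0.70 and 0.34, AIMP2 by 0.44 and 0.54, and EEF1E1 by 0.39 and 0.59. The response of AIMP1 was smaller in Y691F (-0.36, adjusted p = 3.78e-04), as AIMP1 was lower there with IgM (-0.49, adjusted p = 2.71e-12). The 4 tested cytosolic elongation factor genes all rose in both forms, EEF2 by 0.64 and 0.76 and EEF1D by 0.53 and 0.77. EEF1G, also on the list, did not pass the filter on low counts. Mitochondrial translation factors were mixed, with 5 of 9 higher and 3 lower in WT and 5 and 2 in Y691F. The shares of all tested genes raised and lowered by IgM are those given above. GFM1, a mitochondrial elongation factor, rose by 0.70 and 0.56. Of the 3 subunit genes of the amidotransferase that makes mitochondrial glutaminyl-tRNA, QRSL1 rose by 0.47 and 0.36, GATB fell by 0.15 and 0.18, and GATC was at -0.07 (adjusted p = 0.185) and -0.12 (adjusted p = 0.0176). Of the 3 editing and deacylase genes, AARSD1, a trans-editing factor for mischarged alanyl-tRNA, rose by 0.88 and 0.55 and DTD1 fell by 0.43 and 0.71, while DTD2 was at -0.30 (adjusted p = 0.0549) and -0.49 (adjusted p = 0.00216). For neither GATC nor DTD2 was a difference between the responses called (adjusted p = 0.646 and 0.559).

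Reads of some members could be shared with other genes. SARS2 (chr19:38915266-38930896) is covered over 15493 bases, nearly its whole span, by a same-strand gene listed with no count. VARS2 shares 5865 bases on the same strand with GTF2H4, and MARS2 shares 3019 with an antisense-class gene that had no count. HARS2 shares 612 same-strand bases with ZMAT2, and HARS 414 with DND1. The part of such overlaps in these values was not tested. The lowest member counts were 127 for SARS2 in a WT library with IgM, and no cytosolic gene had under 475 counts in any library.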

How the data were processed

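RNA was measured in 12 U-2932 libraries, with dUTP strand marking and polyA+ selection per the labels' protocols. The deposited table gave a whole-number read count and an RPKM value per gene and library, per the file headers. STAR 2.5.0b, DESeq2 and GRCh38 are named in the submitters' processing notes. The read counter, its use of strand, the annotation and the total behind RPKM were not given in the sources used here. Coordinates were taken from the file. Counts deposited by the authors were scaled with TMM factors (1.037 to 1.067 untreated, 0.939 to 0.956 with IgM) and tested with edgeR 4.0.16 (R 4.3.3): filterByExpr, robust quasi-likelihood fit over all 12 libraries, 1 coefficient per group, no covariate, and Benjamini-Hochberg adjustment over all 15112 tested genes. The approximate SE is the absolute log2 change over the root of the F statistic. CPM uses TMM-scaled totals. In simulated counts, 14748 genes passed the filter, and changes were set for Y691F against WT with IgM. Only changed genes with a mean of 5 CPM or more were scored. Of these, 80% of 75 genes changed by a log2 of 0.3 and 100% of 60 changed by 1 were recovered.

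Members, gene lists and alternatives were chosen with earlier results of these data known. Values in every library are given for the 4 cytosolic and 3 mitochondrial genes with the largest called change in each comparison, the gene of each group with the smallest change, and HARS, HARS2, GARS, KARS, WARS and EPRS. From other lists up to 3 genes with the smallest adjusted p in a comparison were named, as was RC3H2. ATF4, PHGDH and PSAT1 fall outside this rule and were chosen after their values were seen. The chi-square per degree of freedom between replicates, which is 1 for counting error alone, ran from 1.40 to 2.37. Alternatives were DESeq2 1.42.0 size factors, its Wald test, library totals only, limma-voom (limma 3.58.1), other filters, fewer groups in the fit, the replicate number as a block, and leaving out each library. Replicate numbers did not pair the libraries: correlations of same-numbered deviations ran from -0.015 to 0.030.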

Additional observations from a re-analysis of the deposited data

Results flagged for a closer look

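The response to IgM differed between Y691F and WT cells for 12 of the 36 genes, by a direct test of the difference in edgeR's quasi-likelihood fit. That is 33.3% of the genes, beside 25.7% of all tested genes. Each value is the log2 response in Y691F minus that in WT.

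Among the cytosolic genes, the difference was 0.25 for QARS (adjusted p = 5.00e-06), 0.21 for IARS (adjusted p = 1.55e-05), 0.20 for VARS (adjusted p = 3.95e-05), 0.14 for GARS (adjusted p = 0.00598) and 0.12 for MARS (adjusted p = 0.0284). It was -0.17 for FARSB (adjusted p = 0.00422), -0.16 for RARS (adjusted p = 0.0130) and -0.13 for AARS (adjusted p = 0.0166). Among the mitochondrial genes it was 0.19 for CARS2 (adjusted p = 0.00553), -0.42 for AARS2 (adjusted p = 1.48e-07), -0.32 for RARS2 (adjusted p = 0.00330) and -0.29 for HARS2 (adjusted p = 0.0334).

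AARS2 is the only one of the 12 that was called in opposite directions in the 2 forms. For 8 of the 12 the forms were called different before IgM: RARS2 by 0.40, HARS2 by 0.21, RARS by 0.14, GARS by -0.34, FARSB by -0.20, MARS by -0.20, VARS by -0.14 and IARS by -0.12. AARS, CARS2, QARS and AARS2 were not called different between untreated forms and were called different with IgM, by -0.14, 0.23, 0.31 and -0.37. The interaction is the difference between the forms with IgM minus that untreated, so these values are parts of it and not separate results. Of the 12, 8 were called under every alternative tried. The exceptions were AARS, MARS, RARS and HARS2. RARS lost its call without WT_IgM replicate 1 (adjusted p = 0.0557), WT_IgM replicate 2 (adjusted p = 0.0601), Y691F_untreated replicate 2 (adjusted p = 0.0690) or Y691F_IgM replicate 2 (adjusted p = 0.0668). MARS lost its call without 4 of the 12 libraries (adjusted p = 0.0537 to 0.0737) and HARS2 without 6 of them (adjusted p = 0.0508 to 0.173).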

How the results depend on the processing

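The counts of called cytosolic and mitochondrial genes stayed within 1.5 times the reported count in all alternatives, except for 2 small mitochondrial counts. For Y691F against WT with IgM, 5 genes became 2 with the DESeq2 Wald test and 3 to 5 when 1 library was left out. For Y691F against WT untreated, 2 genes became 1 with the Wald test and 1 to 3 when 1 library was left out. The cause was not tested.

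With library totals only, the log2 change with IgM turned negative in WT for IARS (-0.084), YARS (-0.10) and TARS2 (-0.076), which were then called lower, and for IARS2 (-2.11e-04), which was not. In Y691F it did so for MARS (-0.12), YARS (-0.15), TARS2 (-0.16) and VARS2 (-0.16), then called lower, and for IARS2 (-0.032), MARS2 (-0.0094), FARS2 (-0.15) and PARS2 (-0.16), not called. The median over all tested genes also moved with this scaling, to -0.13 in WT and -0.18 in Y691F, and the split of all called genes became 4644 higher and 6772 lower in WT and 4246 and 7264 in Y691F. For the interaction the cytosolic split was 4 higher and 5 lower, against 5 and 3. The mitochondrial split of Y691F against WT with IgM was 1 and 3, against 2 and 3, and the interaction of all genes was 1847 and 2132, against 2217 and 1667. Under the other alternatives the sign turned in 89 member results, with no call before or after.

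With the replicate number as a block, the pairing changed none of the 180 member results and the cytosolic count for Y691F against WT with IgM was again 14. Of 12 same-numbered pairs of libraries across groups, 2 correlated best with their own number. Called in every alternative were 13 of 19 genes for Y691F against WT with IgM, 13 of 19 untreated, 20 of 31 for IgM in WT and 25 of 29 in Y691F. The mitochondrial genes had lower counts and a larger median SE, 0.05 against 0.03, and a separate effect of depth was not tested.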
